A study of Rattus norvegicus with 4 samples.

Results

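The genes described here encode the proteasome, the barrel-shaped protease that degrades ubiquitin-tagged proteins in the cytosol and nucleus. They are the genes whose single annotated symbol is Psm, a letter from a to g and a number. Of 12922 genes measured, 45 fit this name rule, each represented by its brightest probe set over all 4 arrays. Of these 45, 43 encode proteasome subunits, activators, an inhibitor or assembly chaperones. The other two, Psmc3ip and Psme3ip1, take their names from a protein they bind. The RNA came from smooth muscle cells of the rat aorta, which contract the vessel wall. All cells were plated in 10% fetal bovine serum for 24 h and then starved for 72 h in medium with neither serum nor insulin. PDGF-BB, the platelet-derived growth factor made of B chains and a mitogen of these cells, was then given to 2 samples at 30 ng/mL for 3 h. The other group of 2 received the vehicle, bovine serum albumin at 0.2% in 10 mM acetic acid, for the same 3 h. The study looked for early genes of smooth muscle phenotypic modulation.

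The 20S core of the proteasome is a stack of rings, the outer ones built from alpha subunits and the inner ones from beta subunits, some of which carry the proteolytic sites. The 19S particle caps the core: its base holds a ring of ATPases that unfold the substrate, and its lid holds the enzyme that removes the ubiquitin chain. In cells exposed to interferon-gamma, Psmb8, Psmb9 and Psmb10 take the place of the catalytic beta subunits and form the immunoproteasome. When proteasome activity is short, the factor NFE2L1 raises the transcription of most subunit genes together, through antioxidant response elements in their promoters.

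Whether a group's samples are separate cultures is not stated in the labels, so p-values reflect no more than array-to-array spread, possibly technical. The median intensity over probe sets was 132 to 148 over the 4 arrays and was lowest on PDGF-BB replicate 2. All 7 smooth muscle markers checked were above 80.3 on at least 1 array, the brightest reading of any Bacillus spike-in control and here a rough yardstick of background. Of these markers, Lmod1, Smtn and Myh11 fell with PDGF-BB, by 1.70, 0.79 and 0.70 on the log2 scale (limma adjusted p 0.00246, 0.0093 and 0.0256). Cnn1, Des and Tagln had positive log2 differences, 0.26, 0.17 and 0.02, and Acta2 had -0.10, none of them called by limma. For Cnn1 both PDGF-BB arrays were above both vehicle arrays, and for Acta2 both were below. The sums of the 7 were 38503 and 38959 with vehicle and 36340.2 and 37183 with PDGF-BB. The 3 endothelial markers measured, Pecam1, Vwf and Kdr, were below the yardstick on every array. Of 5 leukocyte markers measured, Cd14 alone was above it, while Ptprc, the pan-leukocyte gene, was at 23.4 or less. Of 3 markers of adventitial fibroblasts, 2 exceeded it on some array, by little, with summed intensities of 186 to 205 with vehicle and 169 to 210 with PDGF-BB. In bulk RNA, fewer cells of a type and less RNA per cell cannot be told apart.

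Proteasome genes moved little at 3 h. Of the 45, 4 passed the test (8.89%), 1 higher and 3 lower with PDGF-BB, where limma called 27.7% of all genes (12.4% higher and 15.3% lower). The share of all genes includes 4005 with means no higher than 80.3, of which 8.66% were called. Of the 45, 0 had so low a mean. The test was limma on log2(intensity + 16), two-sided, with adjusted p-values over all 23707 probe sets and a threshold of 0.05. The 4 genes were the assembly chaperone genes Psmd5 (higher) and Psmg3 (lower), and, both lower, Psmc3ip and Psme3ip1, which encode no subunit. None of the 36 genes of the core, the immunoproteasome, the base, the lid and the activator group was called by limma. Of the 36, 4 had an unadjusted limma p under 0.05, against 5365 of all 12922 genes. The median log2 difference over the 45 genes was 0.03, against -0.03 over all genes. For 39 of the 45, the 95% interval of the difference lay within a 1.5-fold change either way, against 6003 of all 12922 genes. In 18 genes both PDGF-BB arrays were above both vehicle arrays and in 14 both were below, against 29.7% and 37.8% of all genes, or 67.5% together.

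**Figure D1:**
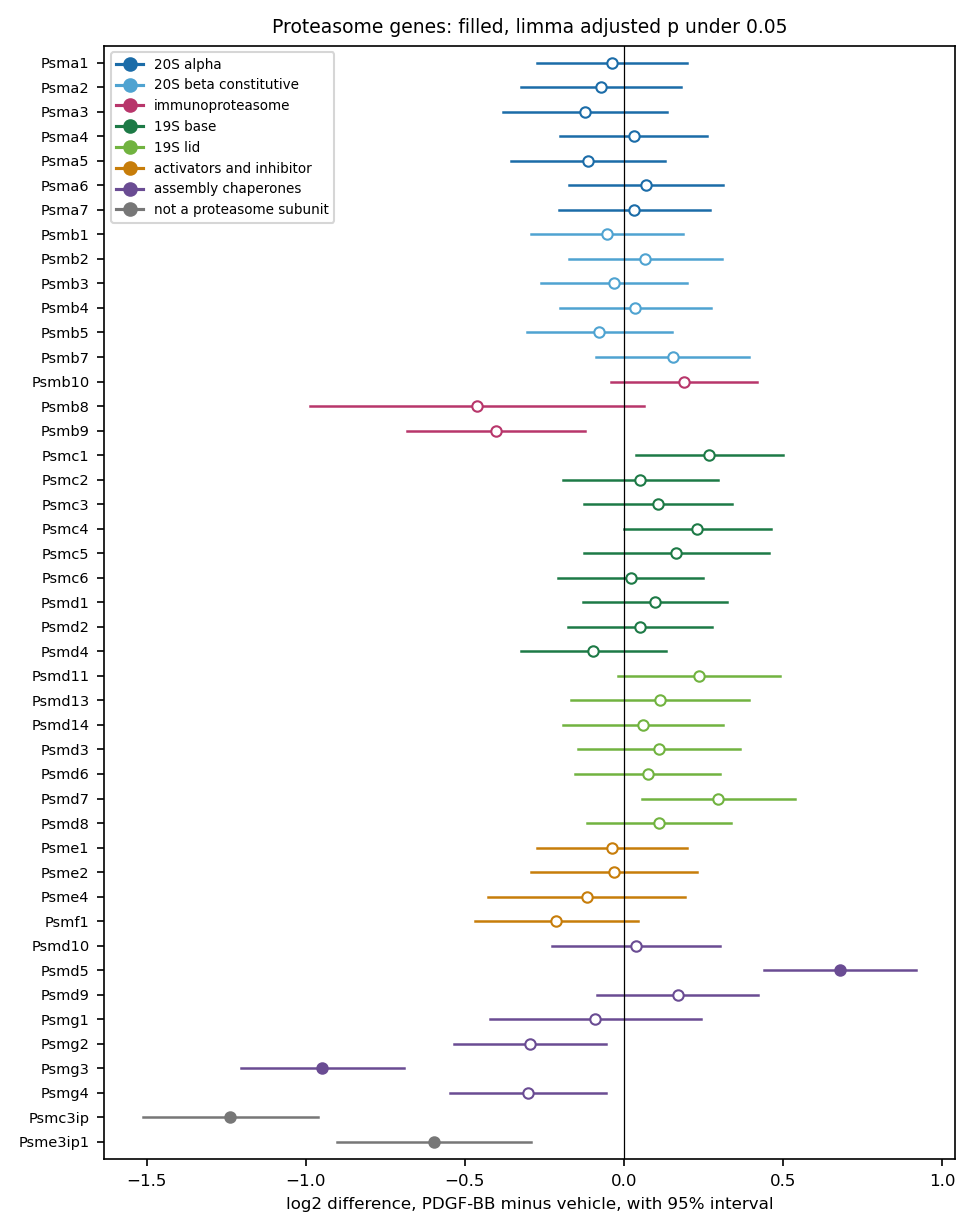
Log2 difference between PDGF-BB and vehicle (x axis) for each of the 45 genes, coloured by its place in the complex, with the 95% interval of the limma fit as a line and filled points at an adjusted p under 0.05. The 4 filled points are Psmd5 at 0.68, Psmg3 at -0.95, Psmc3ip at -1.24 and Psme3ip1 at -0.60, and the core subunits lie between -0.12 and 0.15.

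No gene of the 20S core was called by limma. An unadjusted limma p under 0.05 was seen in 0 of its 13 genes, against 5365 of all 12922. Among the 14 alternatives, Psma5 was called lower after quantile normalization (limma adjusted p 0.0414) and Psmb7 higher with an intensity trend in the variance prior (limma adjusted p 0.0499). Its 7 alpha subunit genes, Psma1 to Psma7, had vehicle means of 1499 to 4293 and log2 differences from -0.12 to 0.07, with a median of -0.04 and limma adjusted p-values of 0.430 to 0.839. Psma4 read 2388 and 2473 with vehicle and 2476 and 2488 with PDGF-BB. Both PDGF-BB arrays were above both vehicle arrays, by a narrow margin, and the log2 difference was 0.03 (SE 0.09). At the low end, Psma3 read 1454 and 1543 with vehicle and 1429 and 1323 with PDGF-BB, a log2 difference of -0.12 (SE 0.10). Both of its PDGF-BB arrays were the lower ones, as they were for Psma5 (-0.11, SE 0.09). Psma6 had 0.07 (SE 0.09), with both PDGF-BB arrays higher. Psma1, Psma2 and Psma7 had -0.04, -0.07 and 0.03 with overlapping groups. For all 7 genes the 95% interval stayed between -0.38 and 0.31.

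The 6 constitutive beta subunit genes measured, Psmb1 to Psmb5 and Psmb7, had a median log2 difference of 0.00 (range -0.08 to 0.15). Psmb5 encodes the beta subunit with chymotrypsin-like activity, the main target of bortezomib. It read 4404 and 4377 with vehicle and 4102 and 4216 with PDGF-BB, so both PDGF-BB arrays were lower, by -0.08 on the log2 scale (SE 0.09, limma adjusted p 0.571). A further probe set of Psmb5 was called higher (log2 difference 0.77, limma adjusted p 0.0206), but it read 2.05 and 1 with vehicle and 16.99 and 11.01 with PDGF-BB, all below the background yardstick. Psmb7, the subunit with trypsin-like activity, had the largest difference of the core, 0.15 (SE 0.09, limma adjusted p 0.296), with 3019 and 3187 against 3505 and 3396. The structural subunit genes Psmb1, Psmb2, Psmb3 and Psmb4 had log2 differences of -0.05, 0.07, -0.03 and 0.04. Psmb6, the subunit with caspase-like activity, was not analysed here, because its probe set is annotated with a second gene.

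The 16 genes of the 19S particle were mostly a little higher with PDGF-BB. In 15 of the 16 the difference was positive, as in 5945 of all 12922 genes. In 11 both PDGF-BB arrays were above both vehicle arrays, as in 29.7% of all genes. The median log2 difference was 0.11, a ratio of 1.08. None was called by limma, and 3 had an unadjusted p under 0.05, against 5365 of all 12922 genes. These signs were not kept under every scaling, and with quantile normalization 7 of the 16 were positive and the median was -0.03. For these genes the 95% intervals ran no lower than -0.32 and no higher than 0.54.

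Within the base, the 6 ATPase genes Psmc1 to Psmc6 had a median log2 difference of 0.14. Psmc1 (Rpt2), whose product helps open the gate of the core, read 1655 and 1698 with vehicle and 2055 and 1990.3 with PDGF-BB. These groups did not overlap, and the log2 difference was 0.27 (SE 0.09, limma adjusted p 0.0958). Psmc4 (Rpt3) read 2023 and 1999.9 against 2403 and 2324, a log2 difference of 0.23 (SE 0.09, limma adjusted p 0.132), and Psmc5 (Rpt6) had 0.16 (SE 0.11). Psmc2 (Rpt1) and Psmc6 (Rpt4) differed by 0.05 and 0.02, with overlapping groups, and Psmc3 (Rpt5) by 0.11 without overlap. The direction of Psmc6 depended on the probe set. Its less bright ones gave -0.07 (SE 0.09) with overlapping groups and 0.29 (SE 0.11) without overlap, neither called by limma. The scaffold genes Psmd1 and Psmd2 had log2 differences of 0.10 and 0.05, with both PDGF-BB arrays above both vehicle arrays. Psmd4, the ubiquitin receptor Rpn10, was the 1 gene of the 19S particle with a negative value, -0.10 (SE 0.08), from 1535 and 1529 with vehicle to 1445 and 1418.

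All 7 lid genes measured had positive values, from 0.06 to 0.30, with a median of 0.11. The structural lid genes Psmd3, Psmd6, Psmd8 and Psmd13 had 0.11, 0.07, 0.11 and 0.11, without overlap except for Psmd13. After quantile normalization Psmd6, Psmd8 and Psmd14 were negative. Psmd7 (Rpn8), the partner of the deubiquitinase, had the largest value of all 16, 0.30 (SE 0.09, limma adjusted p 0.0831). It read 1924 and 1983 with vehicle and 2472 and 2335 with PDGF-BB, and its second probe set differed by 0.20 in the same direction. Psmd11 (Rpn6), which clamps the lid to the core, read 2578 and 2809 against 3224 and 3123, a log2 difference of 0.24 (SE 0.10, limma adjusted p 0.154). A second probe set of Psmd11 gave 0.31 (limma adjusted p 0.0756). Psmd14 (Rpn11), the deubiquitinase of the lid, had 0.06 (SE 0.09) with overlapping groups. The calls for this particle also depended on the processing: Psmd7 was called higher in 5 of 14 alternatives and Psmc1 in 4. With an intensity trend in the variance prior, limma called both of them, Psmc4 and Psmd11 higher at adjusted p-values of 0.00696 to 0.0181, while it called 36.5% of all genes.

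The core and the 19S particle can be set against each other within each array, where a constant scaling factor of the array cancels. For each array, the log2 values were taken as differences from the vehicle mean of each gene. The median over the 16 genes of the 19S particle was 0.11 on PDGF-BB replicate 1 and 0.07 on PDGF-BB replicate 2. Over the 13 core genes it was -0.0020 and -0.04 on the same arrays. The 19S median thus exceeded the 20S median by 0.12 and 0.11 on the PDGF-BB arrays. On the vehicle arrays it differed by 0.01 and -0.01, equal and opposite by construction, because the vehicle mean is the reference. These vehicle values are therefore no independent baseline for the PDGF-BB arrays. In the fit over all 4 arrays this gap between the medians was 0.14, and it lay between 0.08 and 0.17 in all 14 alternative processings. The gap describes these arrays and has no test, because the members were grouped with results known. Intensity moves with it: the core genes had vehicle means of 1499 to 5607 and the 19S genes of 900.0 to 4894, and its part in the gap was not tested.

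**Figure D2:**
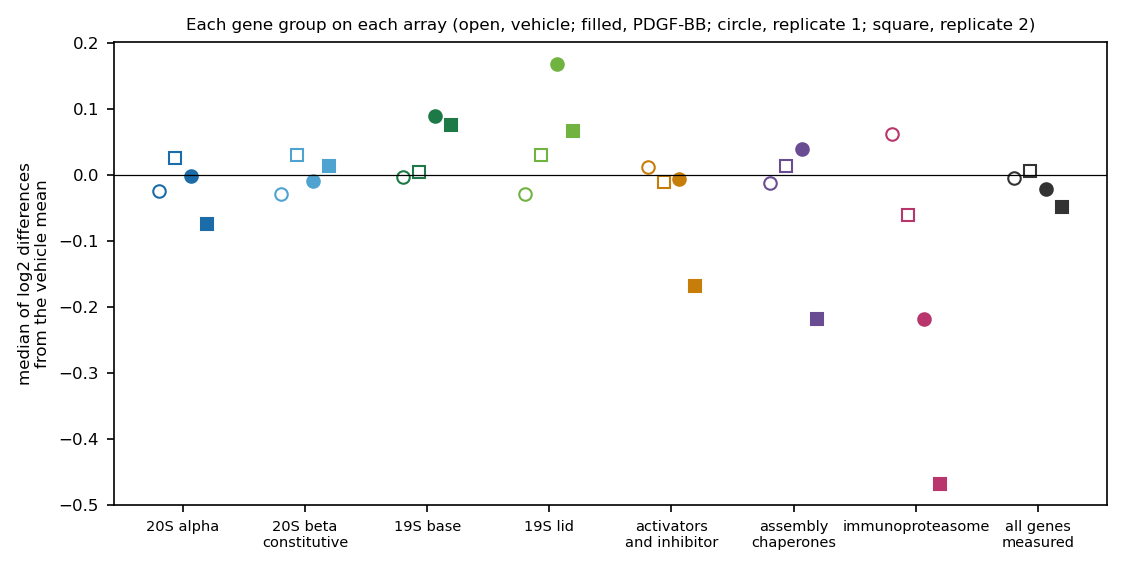
Median over each gene group (x axis) of the log2 differences from the vehicle mean (y axis), with 1 point per array: open symbols are vehicle, filled symbols PDGF-BB, circles replicate 1 and squares replicate 2. The vehicle points of a group mirror each other, because the vehicle mean is the reference. Both PDGF-BB arrays are above both vehicle arrays for the 19S base and the 19S lid. PDGF-BB replicate 2 is lowest for 20S alpha, the immunoproteasome, the activator group, the assembly chaperones and all genes measured.

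**Figure D3:**
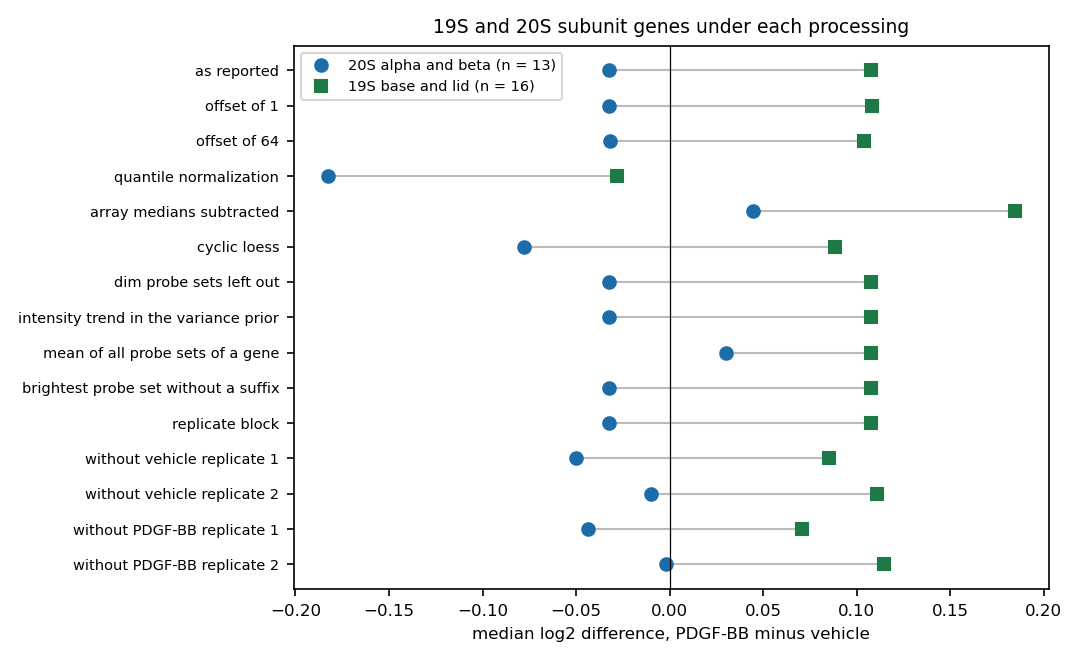
Median log2 difference between PDGF-BB and vehicle (x axis) of 13 core genes (circles) and 16 genes of the 19S particle (squares) under each processing (y axis). Quantile normalization moves both medians down, to -0.18 and -0.03, and the 19S median is the higher one under each processing.

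The activator and inhibitor genes had small negative values. Psme1 and Psme2, the alpha and beta subunits of PA28, which interferon-gamma induces, had log2 differences of -0.04 (SE 0.09) and -0.03 (SE 0.10), with overlapping groups. Psme4, the nuclear activator PA200, read 1468 and 1451 with vehicle and 1459.5 and 1237 with PDGF-BB, so a single array was low, and the log2 difference was -0.12 (SE 0.12). Psmf1, which encodes the inhibitor PI31, read 942 and 922 against 839 and 766, a log2 difference of -0.21 (SE 0.10, limma adjusted p 0.19) without overlap, and it was called lower after quantile normalization (limma adjusted p 0.0446). None of these 4 genes was called by limma, and 0 had an unadjusted p under 0.05. The activator gene Psme3 was not analysed here, since its 4 probe sets are annotated with more than 1 gene. No probe set was annotated with Psmd12 of the lid, the thymus subunit gene Psmb11 or the testis subunit gene Psma8.

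Of 7 assembly chaperone genes measured, 1 rose and 1 fell, a share of 28.6% that lies close to the 27.7% of all genes called. These proteins guide the rings together and are not part of the finished particle. The other 5 did not pass, and the median log2 difference was -0.09. Psmd5, the chaperone S5b of the base, read 1178 and 1227 with vehicle and 1979 and 1891 with PDGF-BB. The groups did not overlap, and Psmd5 rose 1.602-fold, from 1202 ± 34.6 to 1935 ± 62.5 (SD, n = 2), a log2 difference of 0.68 (SE 0.09, limma adjusted p 0.0109). It was the highest of all 45 genes. The other base chaperones were not called: Psmd9 (p27) had 0.17 (SE 0.09) and Psmd10 (gankyrin) 0.04 (SE 0.10).

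The Psmg genes encode the chaperones PAC1 to PAC4 of the alpha ring, and their values were all negative. Psmg3 (PAC3) read 875 and 890.3 with vehicle and 471 and 429 with PDGF-BB. It fell 1.93-fold, from 883 ± 10.95 to 450.0 ± 30.3 (SD, n = 2), a log2 difference of -0.95 (SE 0.10, limma adjusted p 0.00589). Psmg4 (PAC4), which pairs with Psmg3, read 1059 and 991 against 843 and 813, a log2 difference of -0.30 (SE 0.09, limma adjusted p 0.0834). Psmg2 (PAC2) read 725 and 689.8 against 582 and 564, again -0.30 (SE 0.09, limma adjusted p 0.081). Among the 14 alternatives Psmg4 was called lower in 4 and Psmg2 in 3. Its partner Psmg1 (PAC1) had -0.09 (SE 0.12) with overlapping groups, and 0.04 without PDGF-BB replicate 2. The calls of Psmd5 and Psmg3 ended when either vehicle array was left out, which leaves 1 array in that group: the limma adjusted p was then 0.105 and 0.0887 for Psmd5 and 0.0601 and 0.0612 for Psmg3. In those fits 6.12% and 6.55% of all genes were called.

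**Figure D4:**
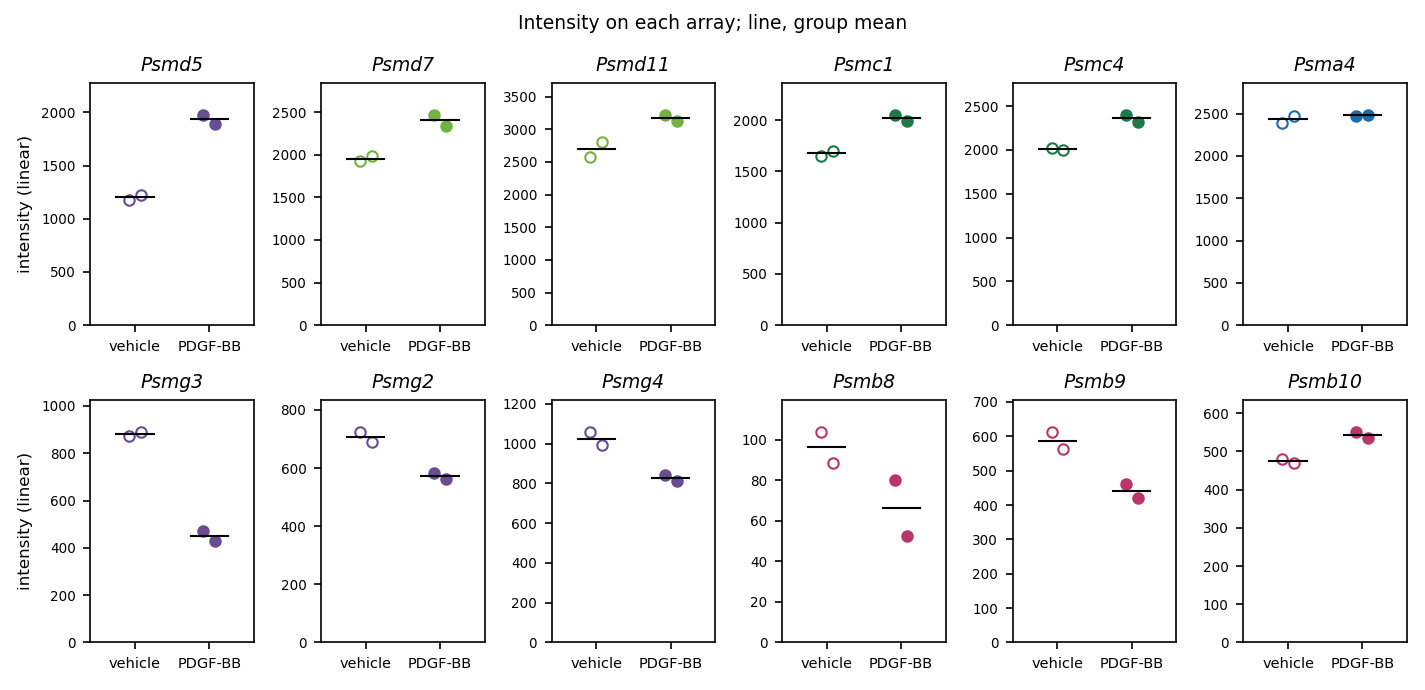
Intensity on a linear scale from 0 (y axis) on each of 2 vehicle arrays (open) and 2 PDGF-BB arrays (filled) for 12 genes, with the group mean as a line. Psmd5 and Psmg3 show the wide gaps, at 1202 against 1935 and 883 against 450.0, whereas Psma4 shows nearly the same level on all 4 arrays.

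The promoters of 5 genes are printed for the 250 bases before the RefSeq start (build GRCr8), because the results turn on these members: Psmd5 and Psmg3 as the chaperone genes that were called, Psmd7 as the 19S gene with the largest value, Psmb5 as a core gene with an antioxidant response element, and Psmb8 for the immunoproteasome. They read 5′ to 3′ on the strand of the gene, at chr3:38548491-38548740 (minus), chr12:19923038-19923287 (plus), chr19:52411317-52411566 (minus), chr15:32047380-32047629 (minus) and chr20:4657032-4657281 (minus), in this order. Capitals mark matches, on either strand, to TGACNNNGC (antioxidant response element), CCAAT (the CCAAT box), the interferon-stimulated response element (GAAA, any 2 bases, GAAA) and TTCNNNGAA (gamma-activated site).
Psmd5: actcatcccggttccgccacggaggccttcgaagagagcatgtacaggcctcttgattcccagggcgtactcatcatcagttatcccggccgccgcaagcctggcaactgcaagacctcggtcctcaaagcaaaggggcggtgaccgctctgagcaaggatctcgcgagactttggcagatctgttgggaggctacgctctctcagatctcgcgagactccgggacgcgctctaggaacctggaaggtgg
Psmg3: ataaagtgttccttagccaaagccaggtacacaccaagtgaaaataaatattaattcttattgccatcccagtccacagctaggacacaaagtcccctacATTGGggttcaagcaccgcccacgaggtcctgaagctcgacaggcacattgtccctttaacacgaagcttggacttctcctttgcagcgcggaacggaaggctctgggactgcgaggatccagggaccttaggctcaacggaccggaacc
Psmd7: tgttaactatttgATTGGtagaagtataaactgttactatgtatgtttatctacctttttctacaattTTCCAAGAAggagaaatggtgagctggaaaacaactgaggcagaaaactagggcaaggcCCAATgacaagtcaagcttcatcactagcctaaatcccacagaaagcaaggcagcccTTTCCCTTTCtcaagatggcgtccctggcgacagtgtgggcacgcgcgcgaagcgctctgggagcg
Psmb5: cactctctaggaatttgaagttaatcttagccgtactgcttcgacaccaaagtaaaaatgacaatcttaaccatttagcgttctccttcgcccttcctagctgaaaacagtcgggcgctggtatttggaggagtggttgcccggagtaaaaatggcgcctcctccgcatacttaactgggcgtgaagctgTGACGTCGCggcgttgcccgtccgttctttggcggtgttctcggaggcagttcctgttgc
Psmb8: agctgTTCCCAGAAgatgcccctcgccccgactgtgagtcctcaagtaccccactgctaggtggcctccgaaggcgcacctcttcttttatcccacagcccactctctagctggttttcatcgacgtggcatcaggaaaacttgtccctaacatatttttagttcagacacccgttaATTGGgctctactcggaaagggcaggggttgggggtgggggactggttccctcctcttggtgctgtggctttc

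Of the 45 genes, 42 had a promoter in the RefSeq table. TGACNNNGC was found in 6 of the 42 (14.3%), Psma3, Psmb2, Psmb5, Psmd1, Psmd9 and Psme4, against 10.1% of all 33469 promoters of this length. It was in 3 of 12 core genes and 1 of 14 genes of the 19S particle. In Psmb5 the match begins 60 bases before the start. CCAAT was found in 21 (50.0%), against 34.0% of all, with 9 of 12 core genes and 5 of 14 genes of the 19S particle. Psmd7 holds matches to 3 of the 4 motifs, CCAAT on both strands, the interferon-stimulated response element and the gamma-activated site. The interferon-stimulated response element was in 5 of the 42 (11.9%), Psma4, Psmb3, Psmb10, Psmd7 and Psme2, against 3.41% of all promoters. TTCNNNGAA was in 4 (9.52%), Psmb8, Psmc6, Psmd3 and Psmd7, against 7.67%. The printed window of Psmd5 holds none of the 4. These matches describe letters and do not show binding, which was not tested. The 2 interferon motifs were added after the values had been seen.

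The immunoproteasome genes went in different directions. Psmb9 read 613 and 562 with vehicle and 462 and 419.6 with PDGF-BB, without overlap, a log2 difference of -0.40 (SE 0.10, limma adjusted p 0.0571). This value lies close to the threshold, and Psmb9 was called lower in 5 of 14 alternative processings, over which the limma adjusted p ran from 0.0106 to 0.299. Psmb8 read 104 and 88.4 against 80.1 and 52.5, near or below the background yardstick of 80.3. Its log2 difference was -0.46 (SE 0.20, limma adjusted p 0.171), and its 95% interval ran from -0.99 to 0.06. Leaving out PDGF-BB replicate 1 gave -0.71, and leaving out PDGF-BB replicate 2 gave -0.22. Psmb10 had the opposite sign, 0.19 (SE 0.09, limma adjusted p 0.194), from 479.8 and 470.3 with vehicle to 551 and 536. None of the 3 was called by limma, and Psmb9 alone had an unadjusted p under 0.05. Leukocyte markers summed to 1498 and 1566 with vehicle and 1232 and 1378 with PDGF-BB, nearly all of it Cd14, and their part in the values of Psmb8 and Psmb9 was not tested; Ptprc, Cd68, Itgam and Cd3e were below the yardstick on all arrays.

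In the genome, Psmb8 and Psmb9 flank Tap1, a subunit of the peptide transporter of antigen presentation. Psmb9 and Tap1 start 457 bases apart and run in opposite directions. Tap1 had a log2 difference of 0.11 (SE 0.12, limma adjusted p 0.55) with overlapping groups, and Tap2, on the other side of Psmb8, had -0.19 (SE 0.15). Of 8 genes of class I antigen presentation measured, 0 were called by limma and 0 had an unadjusted p under 0.05; their median was -0.02. Irf1, an interferon response factor that activates Psmb9 and Tap1, fell 1.80-fold, from 244 and 257 with vehicle to 144 and 121 with PDGF-BB, a log2 difference of -0.85 (SE 0.12, limma adjusted p 0.0119). That call ended without either vehicle array, with limma adjusted p-values of 0.0826 and 0.0912.

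Both genes named after a proteasome protein that they bind fell. Psmc3ip (Hop2), a factor of meiotic recombination that binds Psmc3, read 432 and 441 with vehicle and 187 and 165 with PDGF-BB. It fell 2.36-fold, a log2 difference of -1.24 (SE 0.10, limma adjusted p 0.00401), and was called in all 14 alternative processings. Psme3ip1 (Nip30), a nuclear protein that binds Psme3, read 858 and 956 against 629 and 559. It fell by 0.60 on the log2 scale (SE 0.11, limma adjusted p 0.027). Leaving out any single array ended that call, with limma adjusted p-values of 0.113 and 0.167 without vehicle replicate 1 or 2 and 0.0570 and 0.0919 without PDGF-BB replicate 1 or 2. It also ended with an offset of 1 (limma adjusted p 0.0566).

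Other genes of the pathway were taken from a list by role. Of 43 measured, 7 rose, 2 fell and 34 did not pass (20.9% called, below the 27.7% of all genes), with a median of 0.02. The 19S subunit genes outside the Psm names, Adrm1 (Rpn13) and Sem1, had log2 differences of 0.14 (SE 0.09) and 0.07 (SE 0.09). Pomp, the chaperone of core maturation, had 0.12 (SE 0.08, limma adjusted p 0.376). The deubiquitinases Usp14 and Uchl5, which bind the 19S particle, differed by 0.18 (SE 0.09) and -0.25 (SE 0.11), neither called. Akirin2, which carries proteasomes into the nucleus, rose by 0.58 (SE 0.11, limma adjusted p 0.0252), from 522 and 556 to 867 and 764, a call that ended in each fit without 1 array (0.0525 to 0.167) and with an offset of 1 (0.0528).

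Zfand2a encodes a stress-inducible zinc-finger protein that binds the 19S particle. It rose 3.21-fold, from 259 and 253 with vehicle to 864 and 845 with PDGF-BB, a log2 difference of 1.68 (SE 0.09, limma adjusted p 0.00136). Its relative Zfand5 had -0.32 (SE 0.09, limma adjusted p 0.0699). Among the cofactors of p97, the unfoldase that hands substrates to the proteasome, Nploc4 rose by 0.57 (SE 0.09, limma adjusted p 0.0172) and Nsfl1c by 0.43 (SE 0.10, limma adjusted p 0.0478). The call of Nploc4 ended without either vehicle array (limma adjusted p 0.132 both times) and without PDGF-BB replicate 1 (0.0509). That of Nsfl1c ended in each fit without 1 array (0.0593 to 0.240) and with an offset of 1 (0.0816). The p97 gene Vcp had -0.06 (SE 0.08). The cofactor genes Faf1 and Ubxn1 had negative values without overlap, -0.40 (SE 0.10, limma adjusted p 0.0551) and -0.32 (SE 0.10, limma adjusted p 0.0905). Over the 7 genes of this group the median was -0.06, and 28.6% were called, close to the 27.7% of all genes.

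Of 7 regulators of proteasome transcription measured, 3 rose and 1 fell, where 12.4% of all genes were called higher and 15.3% lower. Nfe2l1 read 688 and 669.6 with vehicle and 606 and 592 with PDGF-BB, a log2 difference of -0.18 (SE 0.09, limma adjusted p 0.223), and Nfe2l2 had 0.00 (SE 0.09). Ngly1, the enzyme that removes glycans from NFE2L1 and so activates it, fell 2.30-fold, from 1261 and 1329 to 598 and 515 (log2 difference -1.20, SE 0.11, limma adjusted p 0.00516), and missed the threshold without vehicle replicate 2 (0.0505). The small MAF factors, which pair with NFE2L1 at antioxidant response elements, all rose. Maff rose 12.2-fold, from 89.2 and 106 with vehicle to 1296 and 1439 with PDGF-BB, a log2 difference of 3.61 (SE 0.12, limma adjusted p 0.00071). Mafg and Mafk rose by 0.54 (SE 0.09, limma adjusted p 0.0212) and 0.53 (SE 0.09, limma adjusted p 0.0174), calls that ended in each fit without 1 array (0.0508 to 0.155 for Mafg and 0.0512 to 0.147 for Mafk).

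**Figure D5:**
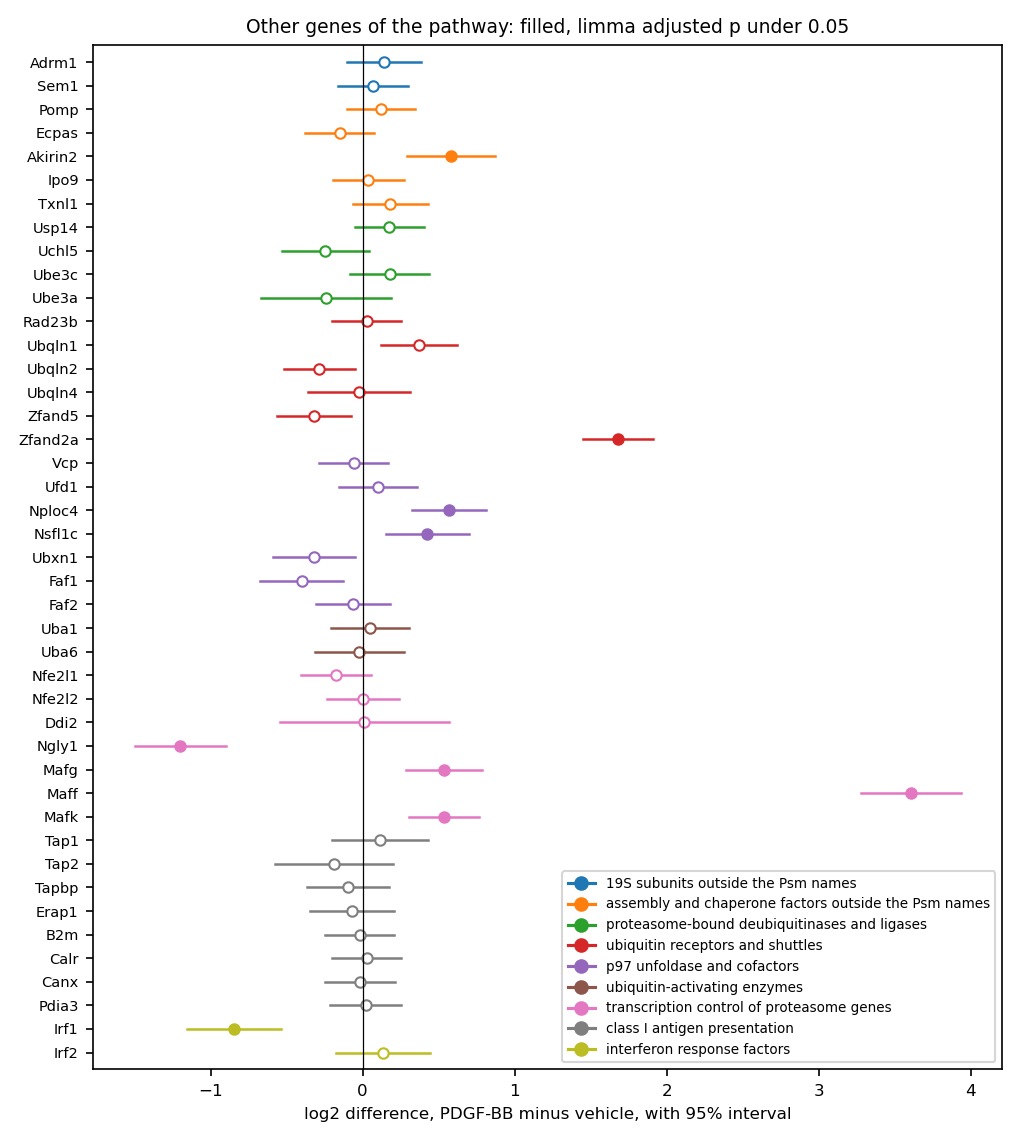
Log2 difference between PDGF-BB and vehicle (x axis) for 43 other genes of the ubiquitin-proteasome pathway, coloured by role, with the 95% interval of the limma fit as a line and filled points at an adjusted p under 0.05. Maff at 3.61 and Zfand2a at 1.68 lie far to the right, and Ngly1 at -1.20 and Irf1 at -0.85 are the filled points to the left.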

How the data were processed

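Per the labels' protocols, biotin-labelled cRNA was hybridised to Affymetrix arrays. The table deposited by the authors holds linear intensities of probe sets, with 1 column for each of 4 samples. How they were corrected for background and scaled, with which software and genome build, is not given in the sources used here. Of 23764 probe sets, 57 controls were left out. The platform annotation gave 1 symbol for 17279 of the 23707 tested, several for 373 and none for 6055. All 45 members matched the RefSeq gene table of GRCr8, and 0 symbols changed.

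Values were fitted as log2(intensity + 16) by limma 3.58.1 (lmFit, eBayes) under R 4.3.3, and p-values were adjusted over all 23707 by Benjamini-Hochberg. The offset of 16 understates changes of dim genes. Folds were taken from these log2 differences, offset included, and so are smaller than the ratios of the intensities printed beside them. The residual degrees of freedom were 2, and eBayes estimated a prior SD of 0.114 on 2.40 degrees of freedom. Differences are PDGF-BB minus vehicle. The fit was tested on simulated data for bias, interval coverage, sign and false calls. These replaced a limit first set for the share of changes recovered, which was missed. Simulated log2 changes of 0.5 were called in 0 of 67 probe sets with each one's own SD and in 2 of 67 with the moderated SD. Changes of 1 were called in 12 and 60 of 67. In the simulation 23507 of 23707 probe sets had no change, so these shares may not carry over to the data. The number of arrays limits the precision.

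All members were named. Of the pathway list, the called genes and Nfe2l1, Nfe2l2, Pomp, Adrm1, Usp14, Uchl5 and Tap1 were named by rule, and Sem1, Zfand5, Vcp, Faf1, Ubxn1 and Tap2 after their values were seen. Some genes on the rule are not reported here. The members, lists and tests were chosen with earlier results of these data known. Alternatives changed the offset, the scaling, the filter on dim probe sets, the variance prior, the choice of probe set, the replicate block and the arrays used. Protein sequences were not used here.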

Additional observations from a re-analysis of the deposited data

How the results depend on the processing

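Under all 14 alternatives a smaller share of the members than of all genes was called (1 to 12 members, 2.22% to 26.7%). Psmc3ip was called in all 14, and Psmd5 and Psmg3 in 12 each. With 2 arrays a group the precision is low, and values near background, such as those of Psmb8, have little precision. Members called higher and lower were 3 and 6 with an offset of 64 and with dim probe sets left out, and 6 and 6 with an intensity trend in the variance prior. Quantile normalization called 7 lower, subtraction of array medians 3 higher and cyclic loess 2 higher. Of the pathway genes, 6 were called lower with an offset of 64 and with dim probe sets left out. After quantile normalization 7 were called lower, and after cyclic loess 5. The shares of all genes called were 35.2% with that offset, 53.6% without dim probe sets, 37% after quantile normalization and 33.8% after cyclic loess. The intensity trend called 11 of 43 pathway genes higher and 7 lower, where it called 36.5% of all genes. With that prior the share called was higher for the pathway genes than for all genes, unlike in the reported fit. These pathway counts were added after the data had been seen. Leaving out 1 array gave 791 to 2692 called genes, 0 to 1 members higher and 1 to 2 lower, and 2 to 3 pathway genes higher and 0 to 2 lower, with fewer arrays in those fits. The lone array of a group was then assumed to vary like the other group.

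The median log2 differences followed the scaling. After quantile normalization they were -0.19 (20S alpha), -0.14 (20S beta), -0.039 (base), 0.012 (lid), -0.20 (activators and inhibitor) and -0.19 (chaperones). With array medians subtracted they were 0.039 (20S alpha), 0.078 (20S beta), -0.33 (immunoproteasome), 0.17 (base), 0.19 (lid) and -0.013 (chaperones). Cyclic loess gave -0.087 (20S alpha), -0.066 (20S beta) and -0.31 (immunoproteasome). The immunoproteasome median was -0.30 with an offset of 64 and -0.11 with dim probe sets left out, which removed Psmb8. The mean of all probe sets gave 0.051 for 20S beta. Without 1 array the medians ran from 0.066 to 0.17 for the lid, from -0.22 to 0.039 for the chaperones and from -0.47 to -0.22 for the immunoproteasome.

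Among the genes named, signs turned for some that were not called. After quantile normalization the values were -0.11 for Psma4, -0.091 for Psma6, -0.11 for Psma7, -0.081 for Psmb2, -0.097 for Psmb4, -0.10 for Psmc2, -0.039 for Psmc3, -0.13 for Psmc6, -0.017 for Psmd1, -0.10 for Psmd2, -0.082 for Psmd14, -0.068 for Psmd6, -0.043 for Psmd8, -0.031 for Psmd10, -0.14 for Nfe2l2 and -0.025 for Pomp. With array medians subtracted they were 0.039 for Psma1, 0.0041 for Psma2, 0.024 for Psmb1, 0.044 for Psmb3, 0.040 for Psme1 and 0.044 for Psme2. Cyclic loess gave -0.0020 for Psma4, -0.0040 for Psma6, -0.034 for Psma7, -0.055 for Psmb4, -0.031 for Psmc2, -0.027 for Psmc6, -0.0033 for Psmd2 and -0.031 for Nfe2l2. The mean of its 3 probe sets, of which the others were dim, gave 0.32 for Psmb5. Without 1 array the values ran from -0.026 to 0.099 for Psmd10, -0.040 to 0.044 for Nfe2l2, -0.00085 to 0.064 for Psma7, -0.0017 to 0.042 for Psmc6, -0.10 to 0.038 for Psme2, -0.24 to 2.88e-05 for Psme4 and -0.22 to 0.039 for Psmg1. Beyond the scaling itself, the cause was not tested.

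The titles number the samples of both groups 1 and 2, and nothing says that the numbers pair them: the deviations of same-numbered samples correlated at -0.0978 over probe sets. With the replicate block 2997 genes were called, with 1 member higher and 3 lower, and the pathway gene Nsfl1c was no longer called (limma adjusted p 0.0855).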
